A study of Ovis aries with 6 samples.

Results

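The genes described here are 9 genes of the pituitary cells that make prolactin (lactotropes) and growth hormone (somatotropes), chosen by gene name from 26067 features. They are the hormone genes PRL and GH, the transcription factor gene POU1F1, and the receptor genes GHRHR, DRD2, SSTR1, SSTR2, SSTR3 and SSTR5. All 9 names were found in the tables. In 6 sheep samples labelled hypothalamus, RNA was copied into full-length cDNA, which was PCR-amplified and read by Oxford Nanopore sequencing. The HP group held 3 healthy small-tailed Han sheep, classed by the submitters as highly reproductive, and the LP group held 3 healthy Wadi sheep, classed as less reproductive. No treatment, sex, age or stage of the oestrous cycle is given in the labels, and breed and reproductive class are the same split. The comparison asks how gene expression in this tissue differs between a more and a less prolific breed. The genes were chosen with earlier results of this same comparison known, so their HP and LP values are given as a description, and no test of them is read as evidence.

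Prolactin and growth hormone are related peptide hormones made in the anterior pituitary, in cell types that share the lineage factor POU1F1. Growth hormone release is driven by growth hormone-releasing hormone through the receptor encoded by GHRHR and held back by somatostatin through the receptors encoded by the SSTR genes. Prolactin release is held back by dopamine from the hypothalamus through the D2 receptor, encoded by DRD2. DRD2 and the somatostatin receptor genes are also known to be expressed in neurons, whereas PRL, GH, POU1F1 and GHRHR are best known from the anterior pituitary.

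Libraries held between 1981644 and 2732911 counts, and a count of 0 allows up to 1.00 to 1.56 CPM (3 counts). CPM is the count of a gene per 1000000 counts of the library total, scaled with TMM factors. Since the cDNA was amplified, reads can share a molecule, and intervals and floors cover no more than counting error. Columns of the tables were matched to samples by number alone, because their letter differs from that of the sample titles, and every statement about HP or LP rests on that match. Summed over 13 anterior pituitary markers, which include PRL and GH, the libraries held 49.0 to 142 CPM in HP sheep and 47170 to 299877 CPM in LP sheep. POU1F1, TSHB, PITX1, LHX3 and TBX19 had no count in HP. The 10 neuronal markers in the tables summed to 5492 to 6070 CPM in HP sheep and 777 to 1172 CPM in LP sheep, and 10 cerebellar granule cell markers to 4310 to 4631 CPM in HP sheep and 11.2 to 118 CPM in LP sheep. The 16 listed hypothalamic peptide genes summed to 96.5 to 150.0 CPM in HP sheep and 124 to 406 CPM in LP sheep, mostly from TRH in HP and from POMC in LP, which pituitary corticotropes also express. GNRH1, KISS1 and HCRT had no count in any library, and OXT and AVP had no count in HP sheep and at most 7 and 5 in LP sheep. All marker sums here and below are per unscaled library total. In bulk tissue, fewer cells of a type and less RNA per cell cannot be told apart, and the part that the cell make-up of the samples plays in the differences below was not tested.

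Both hormone genes were at trace level in HP sheep and abundant in LP sheep. PRL had 233, 81 and 74 counts in HP replicates 1, 2 and 3, against 276428, 597051 and 82255 in LP replicates 1, 2 and 3. These are 92.8, 27.4 and 24.7 CPM in HP sheep and 125313, 304518 and 42862 CPM in LP sheep. The groups lay far apart, with HP replicate 1 the highest of its group and LP replicate 2 the highest of all. GH had 17, 8 and 11 counts in HP, or 6.77, 2.70 and 3.68 CPM, and 37340, 82773 and 7565 counts in LP, or 16927, 42217 and 3942 CPM. The order of the libraries within LP was that of PRL. On the log2 scale, HP minus LP, the fitted difference was -11.67 ± 1.36 (SE) for PRL and -12.22 ± 1.25 for GH. Without LP replicate 2 they were -10.81 and -11.26, and that of PRL was -12.48 without HP replicate 1 and -12.28 in TPM with limma at a pseudocount of 0.1. In all 3 HP libraries both hormones had counts above the floor of 3, which covers counting error alone. The origin of these few HP reads was not tested.

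**Figure D1:**
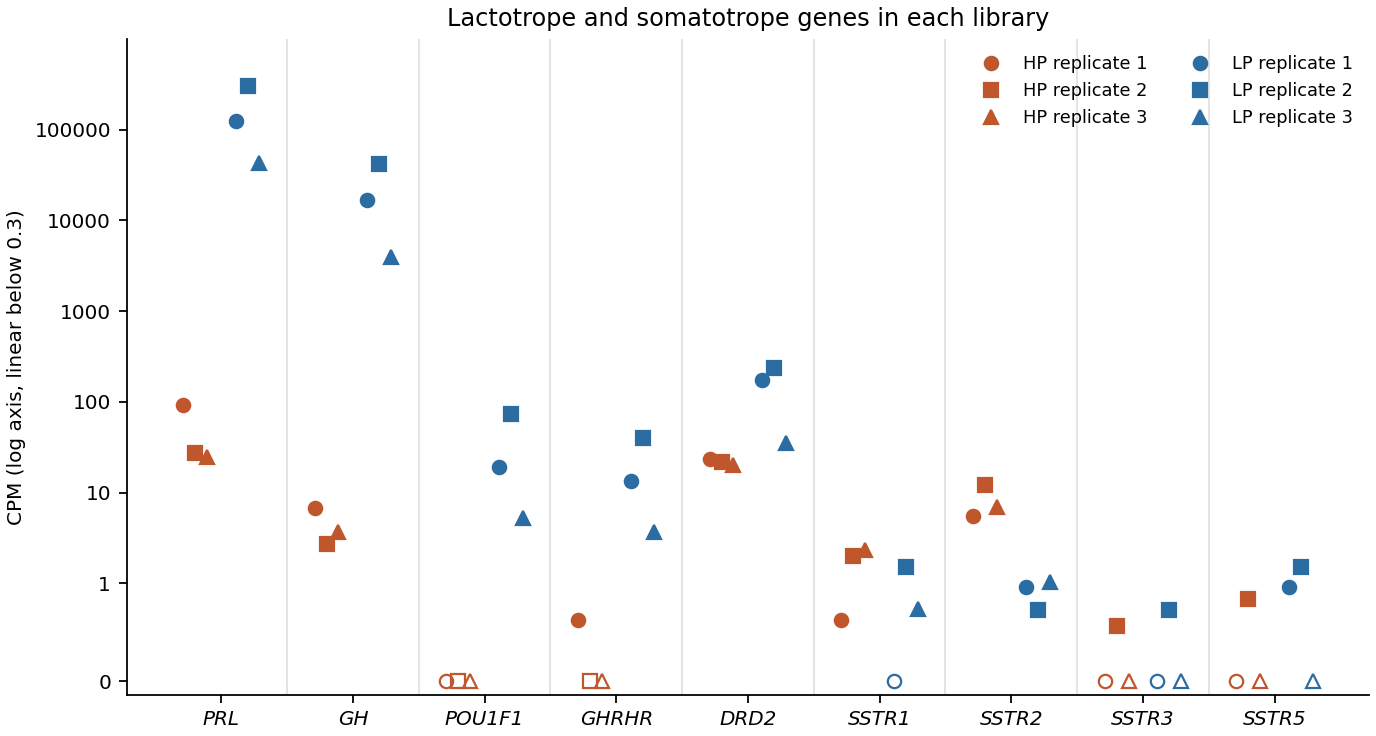
Each point is the CPM of a gene (x axis) in 1 library, on a log axis that is linear below 0.3, with HP left of LP and open symbols for libraries without a count. PRL, GH, POU1F1, GHRHR and DRD2 were lower in all HP libraries than in any LP library, SSTR2 was higher, and SSTR1, SSTR3 and SSTR5 overlapped.

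The transcription factor and the releasing hormone receptor were found almost wholly in LP. POU1F1, which activates the PRL and GH genes, had no count in HP sheep and 42, 146 and 10 counts in LP sheep. It was at least 30.7-fold lower in HP, set against 3 counts per HP library, or at least 11.3-fold lower without LP replicate 2. GHRHR, the receptor gene of somatotropes for the releasing hormone, had 1, 0 and 0 counts in HP sheep and 30, 78 and 7 in LP sheep. Its level in LP was 160-fold that in HP by summed counts, with a 95% counting interval of 28.1 to 6370. Without HP replicate 1 no HP count was left and the gene was at least 18.9-fold lower in HP, and without LP replicate 2 the count ratio, LP over HP, was 75.9 (12.8 to 3078).

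DRD2 had a steady level in HP that PRL did not share. It had 59, 65 and 60 counts in HP sheep and 390, 460 and 68 in LP sheep, which are 23.5, 22.0 and 20.1 CPM in HP sheep and 177, 235 and 35.4 CPM in LP sheep. LP replicate 3 stood close above the HP libraries, and the groups did not overlap. The fitted log2 difference, HP minus LP, was -2.77 ± 0.63 (SE), between -3.27 without LP replicate 3 and -2.33 without LP replicate 2.

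The somatostatin receptor genes were scarce, and SSTR2 was the member with its higher level in HP. SSTR2, which encodes a main inhibitory receptor of somatotropes and is also known in neurons, had 14, 36 and 21 counts in HP sheep and 2, 1 and 2 in LP sheep. Its levels were 5.58, 12.2 and 7.02 CPM in HP sheep and 0.907, 0.510 and 1.04 CPM in LP sheep, with no overlap, and the fitted log2 difference was 3.26 ± 0.53 (SE). In TPM with limma it was 1.95 at a pseudocount of 0.1 and 0.70 at 1, and SSTR2 had at most 1.27 TPM in any library. All LP values lay below the level that 3 counts stand for. SSTR1 had 1, 6 and 7 counts in HP sheep and 0, 3 and 1 in LP sheep, 2.52 times as many per scaled total in HP (0.791 to 10.5, 95% counting interval), so a difference was not detectable at this depth. Without HP replicate 1 the ratio, LP over HP, was 0.301 (0.0715 to 0.974), and without LP replicate 2, on 1 LP count, 0.147 (0.00347 to 0.963), both intervals below 1. SSTR5, a receptor also known for inhibiting growth hormone and prolactin release, had 0, 2 and 0 counts in HP sheep and 2, 3 and 0 in LP sheep, a ratio, HP over LP, of 0.288 (0.0274 to 1.76). SSTR3 had 1 count in each group. SSTR4 is not analysed here.

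Of the 9 genes, 5 (PRL, GH, POU1F1, DRD2 and SSTR2) had enough counts to enter the fit across all genes. GHRHR, SSTR1, SSTR3 and SSTR5 did not pass the filter on low counts. POU1F1 and GH passed it only through their LP counts, and SSTR2 only through its HP counts. All 5 lay past the threshold used for all genes, an adjusted p of 0.05 by the edgeR quasi-likelihood test (Benjamini-Hochberg), 4 lower in HP and 1 higher, where 51.2% of the 13078 tested genes passed, 24.1% lower and 27.1% higher in HP. HP and LP values did not overlap in 6 of the 9 genes, 5 with HP lower and 1 with HP higher, where 62.9% of tested genes did not overlap. Since this contrast was known when the genes were chosen, these counts test nothing about them and nothing is read from them. Of all genes that passed, 52.9% were higher in HP, against 63.8% with library totals alone, 36.8% for deposited TPM tested with limma at a pseudocount of 1 and 34.5% at 0.1. The median log2 fold change of all tested genes was 0.02 as analysed, 0.28 with library totals alone and -0.31 and -0.40 with TPM at these pseudocounts. These shifts are small beside those of PRL and GH.

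In deposited TPM, used here for levels of different genes, the order of levels differed between the groups. In LP, PRL had 77080, 168262 and 21566 TPM and GH 11211, 24853 and 2123 TPM. Below them came DRD2 with 58.5, 69.6 and 10.7 TPM. POU1F1 (3.53, 12.3 and 1.20 TPM) and GHRHR (3.34, 9.51 and 0.771 TPM) followed at overlapping levels, and all somatostatin receptor genes were at 0.259 TPM or below in LP. In HP, PRL still came first with 26.9, 8.62 and 9.50 TPM, but DRD2, with 4.27, 4.31 and 4.83 TPM, stood above GH, with 2.06, 0.905 and 1.52 TPM. SSTR2 (0.535, 1.27 and 0.891 TPM) overlapped with GH in HP. How transcript length enters the TPM values is not stated.

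Ratios of 2 genes within a library do not depend on scaling between libraries. The ratio of PRL to GH counts was 13.7 (95% exact interval 8.38 to 23.9), 10.1 (4.90 to 24.2) and 6.73 (3.55 to 14.1) in HP replicates 1, 2 and 3, and 7.40 (7.32 to 7.48), 7.21 (7.16 to 7.27) and 10.9 (10.6 to 11.1) in LP replicates 1, 2 and 3. The HP and LP ratios overlapped, although the level of each hormone differed. On the log2 scale the mean ratio in HP minus that in LP was 0.23, less than the spread between libraries (pooled SD 0.43). Among the LP libraries, replicate 3 held more PRL per GH than the other two, beyond counting error.

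**Figure D2:**
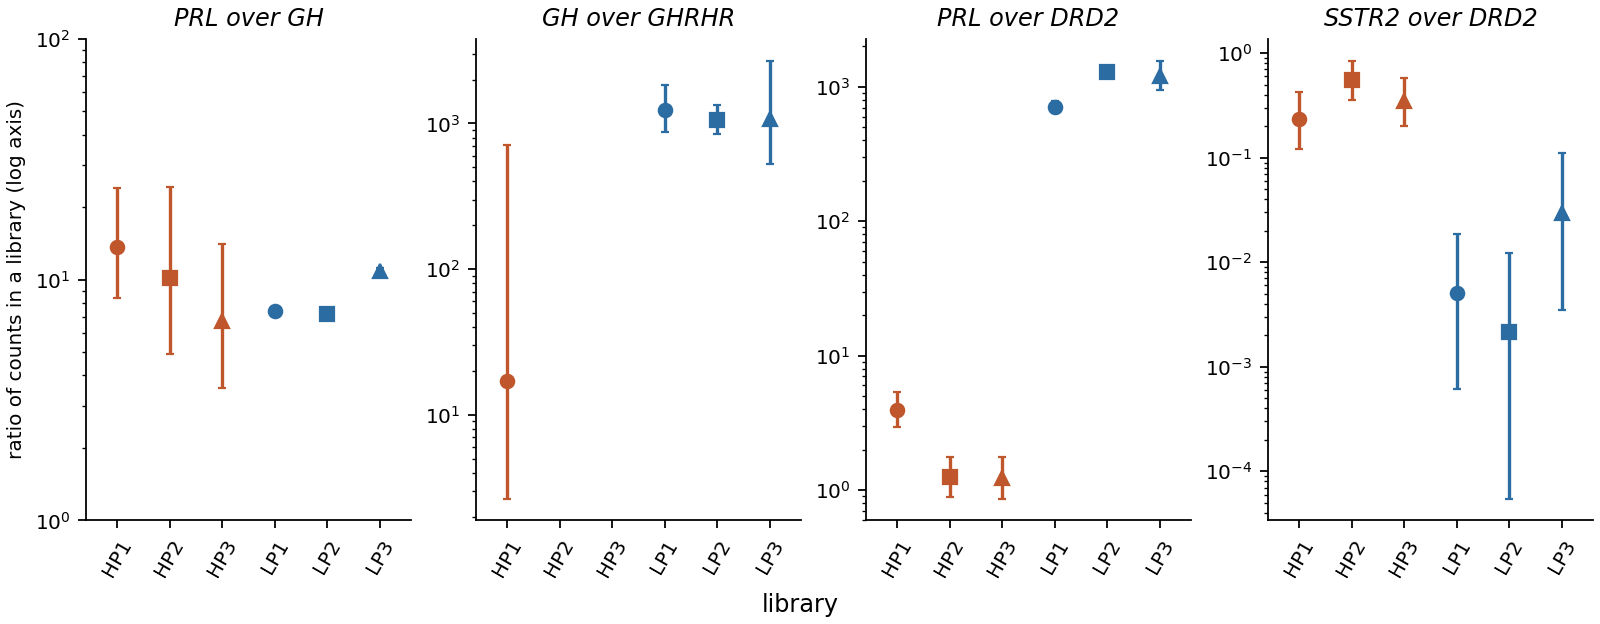
Ratios of counts (y axes, log) in each library (x axis), with 95% exact counting intervals. Libraries with a count of 0 in either gene have no point. PRL over GH overlapped between HP and LP and GH over GHRHR was nearly constant in LP, with a lower value on 1 GHRHR count in HP replicate 1, and PRL over DRD2 and SSTR2 over DRD2 did not overlap between the groups.

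Ratios of hormone to receptor counts were then set side by side. GH over GHRHR was 1245 (872 to 1845), 1061 (850 to 1343) and 1081 (524 to 2689) in LP replicates 1, 2 and 3, a 1.17-fold range of ratios while GHRHR itself varied 10.9-fold in CPM. In HP replicate 1, with 1 GHRHR count, it was 17 (2.66 to 710), and the other HP libraries gave no ratio. PRL over DRD2 was 3.95, 1.25 and 1.23 in HP sheep and 709, 1298 and 1210 in LP sheep, a 1.83-fold range within LP. Had DRD2 stood to PRL in HP as it did over the summed LP counts, 0.373 counts would have gone with the 388 PRL counts of HP, where 184 DRD2 counts were observed. The same sum for POU1F1 gives 0.0804 counts in HP where 0 were observed, and for GHRHR against GH 0.0324 where 1 was observed. The ratio of POU1F1 to PRL in HP could therefore not be measured at this depth. CGA, the alpha subunit gene of gonadotropes and thyrotropes, followed PRL less closely than GH did. PRL over CGA was 3.38, 2.19 and 1.64 in HP sheep and 32.8, 17.2 and 28.1 in LP sheep, without overlap.

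Within LP, most members shared an order of the libraries but not the size of the differences. In PRL, GH, POU1F1, GHRHR, DRD2 and SSTR5, the last on 5 counts, CPM was highest in replicate 2, then replicate 1, then replicate 3. This order held in 6 of the 9 members and in 21.5% of all tested genes. SSTR2, on at most 2 counts, was instead lowest in replicate 2, with 0.907, 0.510 and 1.04 CPM in LP replicates 1, 2 and 3. SSTR1 and SSTR3 had at most 3 counts in an LP library. With library totals alone it held in 6 members and in 13.7% of tested genes. LP replicate 2 over LP replicate 3 was 7.10 for PRL, 10.7 for GH, 14.3 for POU1F1, 10.9 for GHRHR and 6.62 for DRD2. LP replicate 2 over LP replicate 1 was 2.43 for PRL, 2.49 for GH, 3.91 for POU1F1, 2.93 for GHRHR and 1.33 for DRD2. Hormone genes of other pituitary cells were spread differently. TSHB, the thyrotropin beta subunit gene, had 94.2% of its LP sum in replicate 2, and FSHB, the follicle-stimulating hormone beta subunit gene, 85.5%, whereas PRL had 64.4% and GH 66.9% there. POMC, the corticotrope hormone precursor gene, was highest in LP replicate 1, with 48.7%. LP replicate 3, the lowest for these genes apart from TSHB, was the highest LP library for the sums of glial and choroid plexus markers. In LP replicates 1, 2 and 3, astrocyte markers summed to 201, 176 and 10791 CPM, oligodendrocyte markers to 70.5, 17.4 and 4240 CPM, and choroid plexus markers to 38.5, 6.20 and 7368 CPM. The choroid plexus sum of replicate 3 came mostly from TTR, with 14490 counts there, and AQP1 had 15, 0 and 11 counts in LP. In HP replicate 3 the choroid plexus sum was 4531 CPM. The part of these markers in the order of the LP libraries was not tested.

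**Figure D3:**
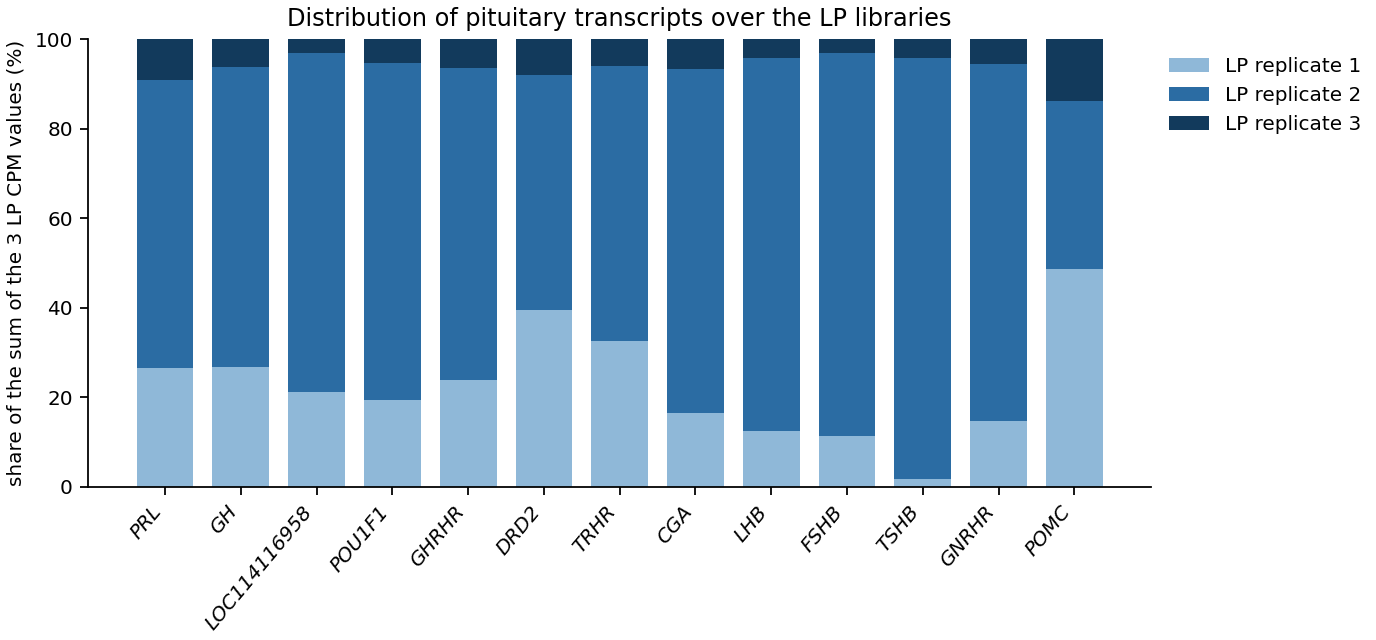
Bars divide the sum of the 3 LP CPM values of each gene (x axis) over LP replicates 1, 2 and 3 (y axis, percent). Replicate 2 held the largest share of every gene shown except POMC, from 52.5% for DRD2 to 94.2% for TSHB.

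A further somatotropin gene accompanied GH. LOC114116958, annotated in the tables as somatotropin and next to GH in the RefSeq gene order of assembly ARS-UI_Ramb_v3.0, had 2, 0 and 0 counts in HP sheep and 890, 2830 and 113 in LP sheep. A duplicated growth hormone gene is known in sheep, and reads of near-identical copies can be split between them in counting, so the division between both genes is uncertain. GH over this copy was 42.0 (39.3 to 44.9), 29.2 (28.2 to 30.4) and 66.9 (55.6 to 81.3) in LP replicates 1, 2 and 3, so the ratio itself differed among LP libraries beyond counting error. In HP replicate 1 it was 8.50 (2.02 to 75.9), on 2 counts. The tables hold 41 features whose annotation names prolactin, growth hormone, placental lactogen, somatostatin receptors or dopamine receptors, among them the placental prolactin-related genes of ruminants. Of these, 14 had no count in any library and 12 reached 10 counts in at least 1 library. No feature annotated as placental prolactin-related or chorionic somatomammotropin was among those 12.

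Profiles over the 6 libraries were compared as log2 CPM with a prior count of 2, each centred on its mean, by their root mean square difference over the 6 points. The gene most like PRL among named genes was GH, at 0.376, followed at a distance by LHB (1.44), CGA (1.79), FSHB (2.14) and POMC (2.18). These genes encode hormone subunits and precursors of the other pituitary cell types. The same genes followed PRL in likeness to GH, with LHB at 1.40. Among the genes closest to POU1F1 were SCG2 (0.218), a granin of secretory granules, AP1M2 (0.309), an adaptor subunit of epithelial and secretory cells, ELAPOR1 (0.334) and CLDN9 (0.341), a tight junction gene. The prior count sets the value of POU1F1 in HP, where it had no count. All these profiles contain the HP to LP difference, which was known when the genes were chosen. The likeness is therefore a description and no separate support.

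Signals that reach lactotropes and somatotropes from the hypothalamus were mostly not detected. Of 12 listed genes, 5 reached 10 counts in a library and 2 were tested. TRH, thyrotropin-releasing hormone, which also stimulates prolactin release, and ADCYAP1, the peptide PACAP, both passed the threshold higher in HP (edgeR, adjusted p = 4.59e-04 and 0.00708). The ADCYAP1 call was lost in TPM with limma at a pseudocount of 1 (adjusted p = 0.0845). TRH and ADCYAP1 entered the fit only through their HP counts, and 27.1% of all tested genes passed higher in HP. Nothing is therefore read from their share of the list. TRH had 218, 399 and 317 counts in HP sheep and none in LP sheep, and ADCYAP1 10, 17 and 17 in HP sheep and 0, 2 and 0 in LP sheep. GHRH, the releasing hormone itself, had no count in HP sheep and 0, 1 and 1 in LP sheep, and SST, the somatostatin gene, 1, 0 and 1 in HP sheep and 0, 0 and 3 in LP sheep. TH, the rate-limiting enzyme of dopamine synthesis, had 1 count in HP sheep and none in LP sheep. GAL, the galanin precursor gene, which is also made by lactotropes in rodents, had no count in HP sheep and 17, 22 and 5 in LP sheep, at least 6.71-fold lower in HP. DDC, the next enzyme of dopamine synthesis, had 1, 3 and 1 counts in HP sheep and 4, 14 and 5 in LP sheep. SLC18A2, the vesicular monoamine transporter gene, overlapped, with 8, 10 and 10 in HP sheep and 6, 11 and 15 in LP sheep.

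Of 17 further receptor genes, 16 were in the tables, 8 reached 10 counts in a library and 5 were tested. All 5 passed the threshold, 3 lower and 2 higher in HP, where 51.2% of all tested genes passed. RXRG and TRHR passed the filter on low counts only through their LP counts, and ADCYAP1R1 only through its HP counts. Nothing is therefore read from this share. Of these calls, 4 (all but that of RXRG) were lost on leaving out at least 1 library. TRHR, which encodes the TRH receptor, had 12, 19 and 11 counts in HP sheep and 113, 190 and 18 in LP sheep, 10.5-fold lower in HP (edgeR, adjusted p = 0.0102). It was 6.29-fold lower without LP replicate 2, and the call was lost without HP replicate 1 (adjusted p = 0.0524 by the same edgeR test). TRH was thus higher in HP and its receptor gene lower in HP. RXRG, a retinoid receptor gene known in pituitary, had 1, 1 and 0 counts in HP sheep and 22, 80 and 18 in LP sheep, and ESR1, the oestrogen receptor alpha gene, whose call depends on the libraries kept, 10, 14 and 13 in HP sheep and 72, 157 and 14 in LP sheep. ESR1 passed (edgeR, adjusted p = 0.0134), but no longer when any HP library was left out (edgeR, adjusted p = 0.0630, 0.0566 and 0.0535 for replicates 1, 2 and 3), nor by limma-voom (adjusted p = 0.0632).

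Higher in HP were ADCYAP1R1, the PACAP receptor gene, with 13, 13 and 19 counts in HP sheep and 0, 1 and 4 in LP sheep, and NR3C1, the glucocorticoid receptor gene, with 398, 354 and 503 in HP sheep and 121, 82 and 183 in LP sheep. For ADCYAP1R1 (edgeR, adjusted p = 0.0214), the call did not survive leaving out any HP library or LP replicate 2 (edgeR, adjusted p = 0.0709, 0.0621, 0.0746 and 0.0565). For NR3C1 (edgeR, adjusted p = 0.0201), it ended on leaving out HP replicate 1, HP replicate 3 or LP replicate 1 (edgeR, adjusted p = 0.0579, 0.0580 and 0.0557). Not tested were THRB, a thyroid hormone receptor gene, with 1, 1 and 0 counts in HP sheep and 14, 19 and 8 in LP sheep, DRD5, with 3, 12 and 3 in HP sheep and 0, 0 and 1 in LP sheep, and DRD1, with 3, 3 and 6 in HP sheep and 3, 2 and 16 in LP sheep. GHSR, the ghrelin receptor gene, had no count in HP sheep and 1, 1 and 0 in LP sheep.

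Transcription factor genes of the pituitary lineage were set beside POU1F1. Of 22 listed genes, 19 reached 10 counts in a library and 12 were tested, of which 9 passed the threshold lower in HP and 1 higher in the same edgeR fit, where 24.1% of all tested genes passed lower. The median log2 fold change, HP minus LP, was -4.84 with genes lacking HP counts at their bound and -6.35 as fitted, against 0.02 for all tested genes. The list was chosen with earlier results known, and all 9 genes lower in HP passed the filter on low counts only through their LP counts. Nothing is therefore read from this share or this median. NEUROD4, a neuroendocrine differentiation factor, had no count in HP sheep and 104, 169 and 19 in LP sheep. SIX6 had none in HP sheep and 350, 605 and 64 in LP sheep, and SIX3 had 1, 0 and 0 in HP sheep and 241, 185 and 23 in LP sheep. INSM1, a factor of endocrine cells, had 8, 9 and 9 counts in HP sheep and 263, 338 and 38 in LP sheep, EYA1 0, 3 and 2 in HP sheep and 27, 58 and 21 in LP sheep. TBX19, the corticotrope factor, had none in HP sheep and 29, 23 and 11 in LP sheep. In each of these 6 genes LP replicate 3, which had the highest sums of astrocyte, oligodendrocyte and choroid plexus markers given above, was the lowest LP library.

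GATA2, a factor of gonadotropes and thyrotropes, had 12, 17 and 11 counts in HP sheep and 54, 57 and 15 in LP sheep, a call (edgeR, adjusted p = 0.0129) that ended on leaving out HP replicate 1 or HP replicate 3 (edgeR, adjusted p = 0.0585 and 0.0572). ETV1, with 539, 640 and 657 counts in HP sheep and 206, 189 and 74 in LP sheep, was the gene higher in HP (adjusted p = 0.0103 by edgeR), a call lost in TPM with limma (adjusted p = 0.142 and 0.143 at the pseudocounts of 1 and 0.1). SOX2 and FOXO1 did not pass (adjusted p = 0.361 and 0.853 by edgeR). Among genes below the filter, LHX3 had no count in HP sheep and 16, 31 and 4 in LP sheep, and PITX1 none in HP sheep and 44, 80 and 5 in LP sheep. LHX4 had 2, 2 and 4 counts in HP sheep and 31, 22 and 7 in LP sheep, HESX1 1, 3 and 2 in HP sheep and 14, 8 and 11 in LP sheep, ISL1 none in HP sheep and 8, 23 and 2 in LP sheep, and FOXL2 2, 0 and 0 in HP sheep and 7, 12 and 0 in LP sheep. Of 17 genes of this list with at least 20 LP counts, 14 were lowest in LP replicate 3 in CPM and 11 had the order of PRL. That order held in 21.5% of all tested genes, or 13.7% with library totals alone. By the same limit, 12 of 21 receptor signalling genes and 11 of 22 effector genes were also lowest in LP replicate 3. The share of all genes lowest there was not computed.

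**Figure D4:**
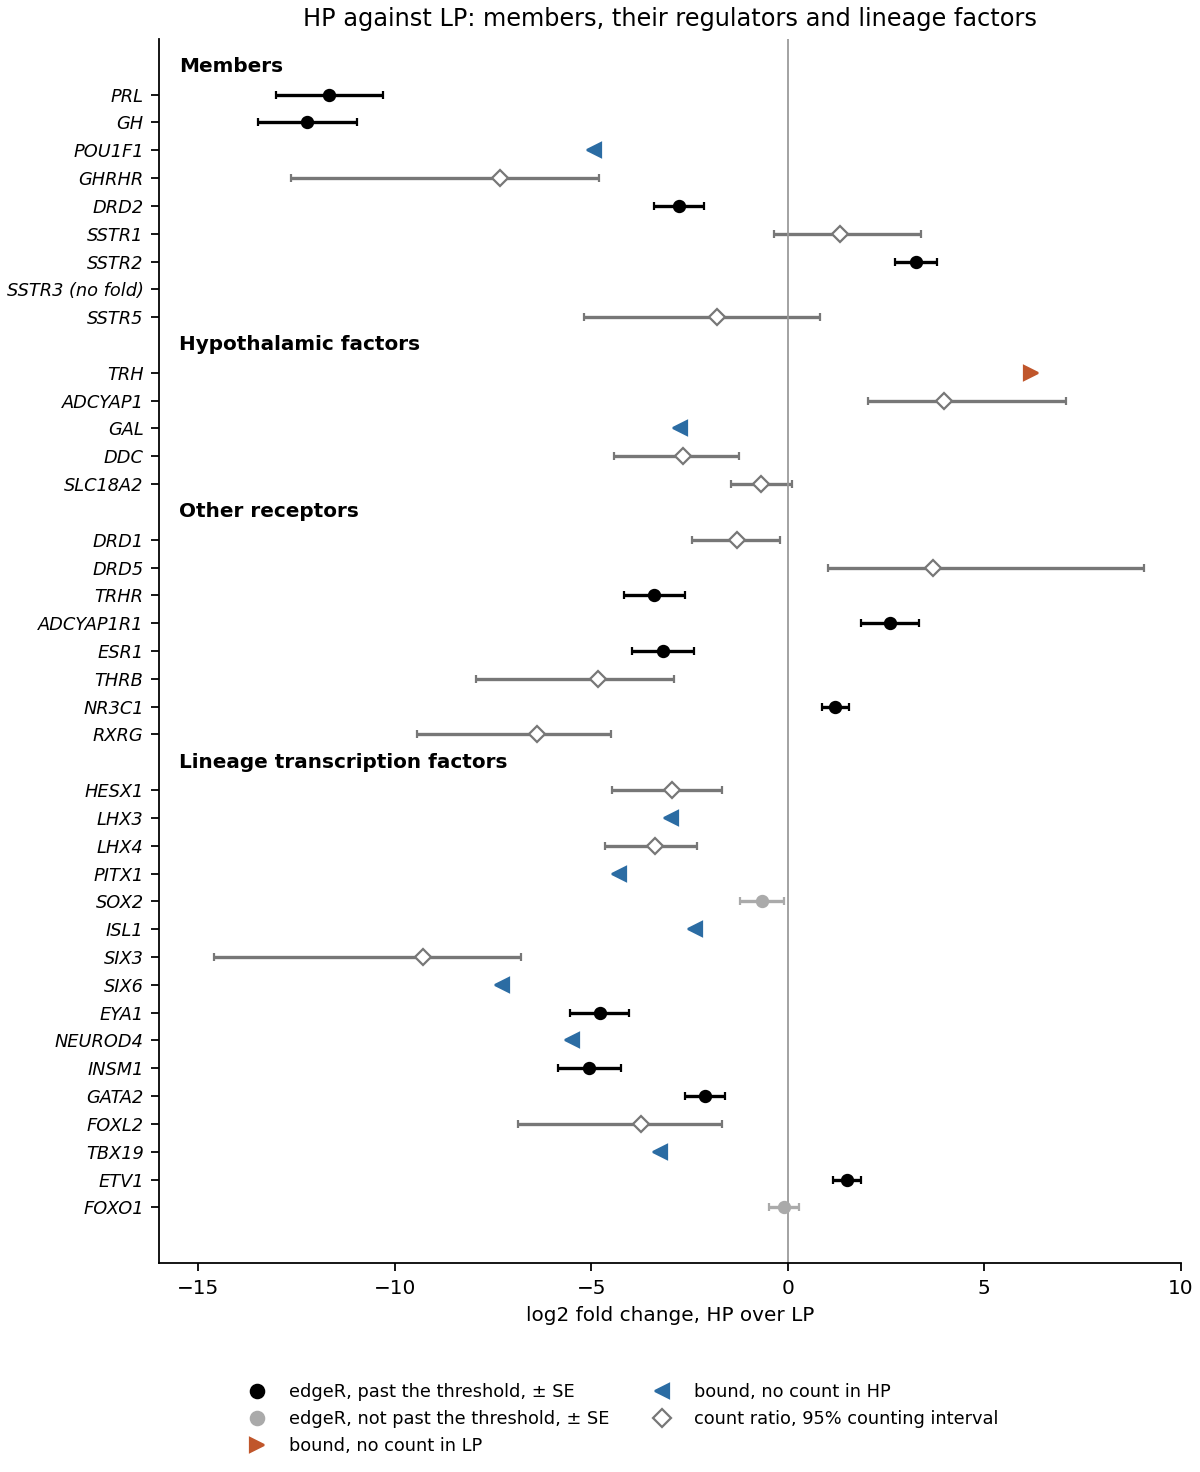
Log2 fold change, HP over LP (x axis), of the members, the hypothalamic factors, other receptors and the lineage transcription factors reported here (y axis). Circles are edgeR estimates with SE, triangles are bounds for genes without a count in a group, and diamonds are count ratios with 95% counting intervals for genes below the filter or with at most 3 counts in a group. Both hormones and most lineage factors lie left of 0, and SSTR2, TRH, ADCYAP1, ADCYAP1R1, NR3C1, DRD5 and ETV1 right of it, while the intervals of SSTR1 and SSTR5 include 0.

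Genes that act after the receptors went both ways. Of 27 listed genes of prolactin and growth hormone receptor signalling, 18 were tested, of which 7 passed the threshold lower in HP and 2 higher, with a median log2 fold change of -0.69. The 9 of 18 that passed are close to the 51.2% of all genes. By direction, 38.9% passed lower and 11.1% higher in HP, against 24.1% and 27.1% of all tested genes. The list was chosen with earlier results known, so nothing is read from these shares. The prolactin receptor gene, named PR in the tables, had no count in HP sheep and 3, 5 and 3 in LP sheep. GHR, the growth hormone receptor gene, overlapped, with 45, 35 and 17 counts in HP sheep and 36, 16 and 25 in LP sheep (adjusted p = 0.883 by edgeR). Among the smallest p-values were those of PTPN6, a phosphatase gene of blood cells, with 0, 1 and 1 counts in HP sheep and 14, 20 and 16 in LP sheep, STAT5B, with 75, 62 and 78 in HP sheep and 13, 10 and 9 in LP sheep, and IGF2, with 6, 9 and 6 in HP sheep and 172, 40 and 175 in LP sheep. All 3 passed (edgeR, adjusted p between 0.00115 and 0.00155), and STAT5B, a main signal carrier of both hormones' receptors, was the only one of them higher in HP. PTPN6 and IGF2 passed the filter on low counts only through their LP counts, and STAT5B only through its HP counts. These calls are therefore given as a description. Markers of microglia and macrophages, which express PTPN6, summed to 67.0 to 107 CPM in HP sheep and 171 to 437 CPM in LP sheep, with none of the 8 at 0 in either group, and their part in this result was not tested.

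Among 25 listed G protein, cyclic AMP and channel genes through which DRD2, somatostatin and GHRHR receptors act, 24 were in the tables, 21 were tested, 6 passed higher in HP and 2 lower, and the median was 0.46. The share that passed, 38.1%, was below the 51.2% of all genes, and the share higher in HP, 28.6%, close to their 27.1%. KCNJ6, which encodes a potassium channel subunit opened by inhibitory receptors, had 447, 479 and 504 counts in HP sheep and 31, 22 and 13 in LP sheep. KCNJ3, which encodes a partner subunit, had 1445, 1331 and 1219 counts in HP sheep and 354, 340 and 174 in LP sheep. Both passed higher in HP (edgeR, adjusted p = 3.77e-04 and 0.00350). Higher in HP were also CACNA1D, a calcium channel gene, by 4.22-fold (log2 2.08, or 2.83 in TPM with limma at a pseudocount of 0.1), and GNAO1, an inhibitory G protein gene, by 2.84-fold, and the GNAO1 call was lost in TPM with limma at a pseudocount of 0.1 (adjusted p = 0.0607). These genes are widely expressed in neurons. The sum of neuronal markers given above was also higher in HP. Of the 10 tested neuronal markers, 8 passed higher in HP, whereas UCHL1 and NEFM overlapped between the groups. The part of neurons in this result was not tested. All 6 listed hormone and receptor genes of other anterior pituitary cells (CGA, LHB, FSHB, TSHB, POMC and GNRHR) passed lower in HP. Of all tested genes, 24.1% did. The median of the 6 was -8.89 with TSHB at its bound and -9.86 as fitted. All but CGA passed the filter on low counts only through their LP counts, so nothing is read from this share. Of 7 tested secretory granule genes, SCG2 and CHGA passed lower in HP, CPE passed higher and VGF did not pass (adjusted p = 0.0669 by edgeR), 42.9% of those tested.

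Other genes named for the 2 hormones were checked as well. PREB, which encodes a protein that binds a prolactin gene element, had 42, 34 and 45 counts in HP sheep and 24, 63 and 27 in LP sheep and did not pass (adjusted p = 0.475 by edgeR). GHITM, a mitochondrial membrane protein gene named for induction by growth hormone, had 9, 9 and 18 counts in HP sheep and 49, 62 and 43 in LP sheep, 5.95-fold lower in HP (edgeR, adjusted p = 0.00178). Its log2 difference of -2.57 was -3.23 in TPM with limma at a pseudocount of 0.1. GHITM passed the filter on low counts only through its LP counts. GRTP1, a growth hormone-regulated TBC protein gene, was not tested, with 0, 0 and 3 counts in HP sheep and 9, 24 and 12 in LP sheep.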

How the data were processed

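Estimated counts per gene were deposited by the authors without scaling between samples, from the file's values. TPM values, scaled within each sample, were deposited by the authors too, and their use of transcript length is not stated. Per the submitters' processing notes, reads were aligned with minimap2 2.17-r941, and the sources used here give no counting tool, build or annotation. Here, counts were rounded and tested in R 4.3.3 with edgeR 4.0.16 (filterByExpr, TMM, quasi-likelihood test, two-sided, Benjamini-Hochberg over 13078 genes, threshold 0.05). SE is the log2 fold change divided by the root of F. With 3 samples per group, p-values measure the spread between these samples, which the labels give as separate. Alternatives used DESeq2 1.42.0 and limma 3.58.1. On simulated counts, 94.0% of 200 genes changed 2 log2 units were recovered, among 12598. The changed genes were drawn from well-counted genes, and all genes had the same dispersion in both groups. This share therefore does not describe genes with few counts or with a wide spread among LP libraries. The chi-square per degree of freedom between libraries of a group was at least 5.69, so none was counted as a duplicate. Of 21457 gene names, 20348 (94.8%) are in the RefSeq table.

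The members and lists were chosen with earlier results of these data known. Named genes are all members, every gene of the first 3 lists with 10 counts in a library, up to 4 tested genes with the smallest p of each other list, the 5 most like PRL, GH and POU1F1, and annotated family features with 10 counts. No sequences are shown, because no sequence table was used here. Some genes that this rule names are not reported here.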

Additional observations from a re-analysis of the deposited data

How the results depend on the processing

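No paired analysis was possible because the labels give HP and LP samples no shared replicate numbers. Leaving out libraries moved the log2 fold changes of PRL to between -12.48 and -10.81 and those of GH to between -12.75 and -11.26, which, with the genes chosen on this contrast, is no independent support. Leaving out libraries gave 4795 to 7912 genes past the threshold, 2716 to 4134 of them higher in HP, and 5 to 6 members. It gave 2 to 3 hypothalamic factors, 2 to 6 receptors, 10 to 14 lineage factors, 8 to 13 receptor signalling genes, 6 to 11 effectors, 5 to 6 other pituitary genes and 3 to 5 granule genes. The log2 ratio of PRL to GH ran from -0.02 to 0.50, and that of DRD2 to PRL from 8.87 to 9.71. The filter that asked for 20 counts in 3 libraries left 3 members past the threshold, 1 hypothalamic factor, 1 receptor and 5 lineage factors, since fewer genes were tested. Without a filter 5 granule genes passed. TPM with limma gave 1 hypothalamic factor at a pseudocount of 1 and 2243 genes higher in HP at 0.1, and 1 TPM stood for a median of 2.34 times as many counts in HP as in LP. Of 690 values of 47 genes, 655 kept direction and call, 18 lost the call, 3 gained it and 14 changed sign. All 14 belong to genes not past the threshold. FOXO1 was at 0.13 with library totals, 0.11 without a filter, 0.029 with limma-voom and -0.45 to 0.15 leaving out libraries. GHR was at 0.14 with library totals, 0.11 without a filter and -0.43 to 0.31 leaving out libraries. PREB was at 0.51 and 0.60 in TPM and -0.68 to 0.19 leaving out libraries, and SOX2 at -0.99 to 0.27. The cause of these shifts was not tested. Depth limits SSTR1, SSTR3, SSTR5 and the HP levels of POU1F1 and GHRHR.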
